A study of Mus musculus with 19 samples.

Results

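Cplane1 (older name 2410089E03Rik) was measured here by 3 of the 55681 non-control probes of a mouse oligonucleotide array, chosen because their RefSeq accession belongs to this gene. The probes disagreed in the same livers: 2 of them gave higher values after dibenz[a,h]anthracene, and the third gave about the same value in every dose group. The samples were pieces of liver from 19 male mice of the transgenic strain 40.6, aged 10 weeks, whose RNA was taken 3 days after dosing with dibenz[a,h]anthracene. There were 5 control mice at 0 mg/kg, 5 mice at 6.25 mg/kg, 4 at 12.5 mg/kg and 5 at 25 mg/kg, so the transgene was carried by controls and exposed animals alike. The labels do not give the transgene, the vehicle or the route. Each array carried the liver RNA of 1 mouse in red (Cy5) against a commercial universal mouse RNA, made from 11 cell lines and called the reference here, in green (Cy3), with the same dyes on all 19 arrays. A value is therefore a log2 ratio of liver over reference RNA, and a difference of 1 between groups is a doubling of that ratio.

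Cplane1 encodes a large protein of the CPLANE complex (ciliogenesis and planar polarity effectors), which sits at the basal body of the primary cilium and is needed to bring in the intraflagellar transport proteins that build the cilium. Mutations of the human gene cause Joubert syndrome and oral-facial-digital syndrome. In adult liver the cells that carry a primary cilium are mainly the cholangiocytes of the bile ducts, while hepatocytes, the main cell type of the tissue, usually have none. Dibenz[a,h]anthracene is a polycyclic aromatic hydrocarbon that binds the Ah receptor and is turned by liver enzymes into products that react with DNA.

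The promoter of Cplane1 is shown because the compound acts through a receptor that binds DNA at a known core. The gene's probes are also compared further on with clock genes and with the genes of most similar values. The sequence is from RefSeq on the build GRCm38.p6, at chr15:8168856-8169155 on the + strand, and runs from 250 bases before the annotated start of the gene to 50 bases after it. The capitals mark the Ah receptor core GCGTG, read on the opposite strand as CACGC.
Cplane1 promoter: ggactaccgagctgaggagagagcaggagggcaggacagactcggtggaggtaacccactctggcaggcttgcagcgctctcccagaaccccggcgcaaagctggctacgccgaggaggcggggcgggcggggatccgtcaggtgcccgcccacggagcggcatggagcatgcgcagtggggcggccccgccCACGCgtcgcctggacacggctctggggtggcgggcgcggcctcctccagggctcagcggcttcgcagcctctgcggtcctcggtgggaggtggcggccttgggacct
The core was found 1 time in these 300 bases on either strand, beginning 58 bases before the start, and 32.5% of 27025 mouse promoters of that length held it. Its first base was shared with 1 of the 5 matches to the GC box GGGCGG, a motif held by 35.9% of promoters. A pair of the other matches to that box overlapped each other. No match was found to the E-box CACGTG (7.24% of promoters), the D-box TTATGTAA (0.955%), the letters CCAAT (37.9%), the letters TATAAA (14.2%) or the p53 half-site consensus (8.37%). The GC content was 72.7%, against a median of 52.7% over all promoters.

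The probe A_55_P2067777 had the highest mean intensity of the 3 and showed the widest separation by dose. At 0 mg/kg its log2 ratio was -2.17, -2.11, -1.65, -1.67 and -1.78 in the 5 mice. At 6.25 mg/kg it was -0.93, -0.84, -0.96, 0.76 and -1.15 in the 5 mice. At 12.5 mg/kg it was 0.44, 1.15, -0.48 and 1.15 in the 4 mice, and at 25 mg/kg 0.68, 1.35, -0.54, 1.96 and 1.75 in the 5 mice. Every one of the 14 exposed livers lay above every control liver, while the 3 exposed groups overlapped with each other. The controls lay close together, and the spread between animals was wider in each exposed group. One mouse at 6.25 mg/kg, replicate 1, stood far above the other 4 of its dose and at the level of the higher doses. The lowest mice at 12.5 mg/kg (replicate 3) and 25 mg/kg (replicate 4) fell within the range of the 6.25 mg/kg group.

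The means of this probe were -1.88 ± 0.24 in controls, -0.62 ± 0.78 at 6.25 mg/kg, 0.56 ± 0.77 at 12.5 mg/kg and 1.04 ± 1.01 at 25 mg/kg (SD, n = 5, 5, 4 and 5). Cplane1 had been picked out because this probe differed at 25 mg/kg, so its differences are given as a description, with standard errors and 95% intervals but no test. They were 1.25 ± 0.43 (interval 0.35 to 2.16) at 6.25 mg/kg, 2.44 ± 0.46 (1.48 to 3.40) at 12.5 mg/kg and 2.92 ± 0.43 (2.01 to 3.82) at 25 mg/kg, that is 2.38-fold, 5.43-fold and 7.57-fold the control ratio. Between exposed groups the difference was 1.19 ± 0.46 for 12.5 over 6.25 mg/kg (interval 0.23 to 2.15). It was 0.48 ± 0.46 for 25 over 12.5 mg/kg, with an interval of -0.48 to 1.44 that includes 0. The order of the means thus followed the dose, and the top pair of doses did not differ beyond their spread. Probes in which every exposed array lay above every control array numbered 16 of the 29415 kept for testing, or 0.0544%. The share with no overlap in that direction was 0.561% at 6.25 mg/kg, 0.5% at 12.5 mg/kg and 1.01% at 25 mg/kg, and this probe was among those at each dose. It had been picked at 25 mg/kg, and the lower doses share the same controls.

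The probe A_52_P194851, which had the lowest mean intensity of the 3 over both channels, gave a smaller difference of the same direction. At 0 mg/kg its log2 ratio was 0.01, 0.25, 0.18, 0.02 and -0.25 in the 5 mice, listed in the same animal order. At 6.25 mg/kg it was 0.51, 0.13, 0.52, 1.12 and -0.07. At 12.5 mg/kg it was 1.82, 1.12, 0.29 and 1.29, and at 25 mg/kg 1.89, 1.43, -0.15, 2.26 and 1.97. At 12.5 mg/kg all 4 livers lay above all controls. At 25 mg/kg 4 of 5 did and at 6.25 mg/kg 3 of 5, so those groups overlapped with the controls. The means were 0.04 ± 0.19 in controls, 0.44 ± 0.46 at 6.25 mg/kg, 1.13 ± 0.64 at 12.5 mg/kg and 1.48 ± 0.96 at 25 mg/kg (SD, n = 5, 5, 4 and 5). The difference from control was 0.40 ± 0.36 (interval -0.35 to 1.16) at 6.25 mg/kg, 1.09 ± 0.38 (0.29 to 1.89) at 12.5 mg/kg and 1.44 ± 0.36 (0.69 to 2.19) at 25 mg/kg. Without replicate 1 of 6.25 mg/kg, the mouse that was also high on the brighter probe, the difference at that dose was 0.23. Liver signal was well above background on 18 of 19 arrays, the exception being control replicate 3. Its value of 0.02 is less precise for that reason, and it lay near the control mean of 0.04.

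The probe A_55_P2067772 did not separate the groups. At 0 mg/kg its log2 ratio was -2.19, -2.17, -2.27, -2.02 and -2.44 in the 5 mice. At 6.25 mg/kg it was -1.81, -2.003, -2.25, -2.14 and -2.47. At 12.5 mg/kg it was -2.35, -1.88, -1.83 and -2.13, and at 25 mg/kg -1.76, -2.22, -2.25, -2.48 and -2.47. The ranges of the 4 groups overlapped. Replicates 1 and 2 at 25 mg/kg, the highest on the brightest probe, had the lowest values of that dose here. Both lay on slide 3, as did control replicate 1 (-2.44) and replicate 2 of 6.25 mg/kg (-2.47). Replicate 1 of 6.25 mg/kg and of 12.5 mg/kg on that slide stood at -2.14 and -2.13. With each slide's mean subtracted, the lowest at 25 mg/kg was replicate 4 (-0.16), also the lowest on the brightest probe. The means were -2.22 ± 0.15 in controls, -2.14 ± 0.25 at 6.25 mg/kg, -2.05 ± 0.24 at 12.5 mg/kg and -2.24 ± 0.29 at 25 mg/kg (SD, n = 5, 5, 4 and 5). The difference from control was 0.08 ± 0.15 at 6.25 mg/kg (interval -0.23 to 0.39), 0.17 ± 0.16 at 12.5 mg/kg (-0.16 to 0.50) and -0.02 ± 0.15 at 25 mg/kg (-0.33 to 0.29). The whole interval at 25 mg/kg lay below the lower bound of both other probes, the brightest of which was picked for its difference. The pooled SD within groups was 0.24 on this probe, against 0.75 on A_55_P2067777 and 0.63 on A_52_P194851, and its signal was well above background in both channels of all 19 arrays. Over all 19 arrays it had the lowest mean liver signal of the 3 probes. Its median spot intensity averaged 158 over a background of 68.8, against 243 over 65.4 for A_52_P194851 and 737 over 66.8 for A_55_P2067777. Those means include the exposed livers, in which both other probes were higher. In controls alone it averaged 151, above A_52_P194851 at 125 and below A_55_P2067777 at 162.

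**Figure D1:**
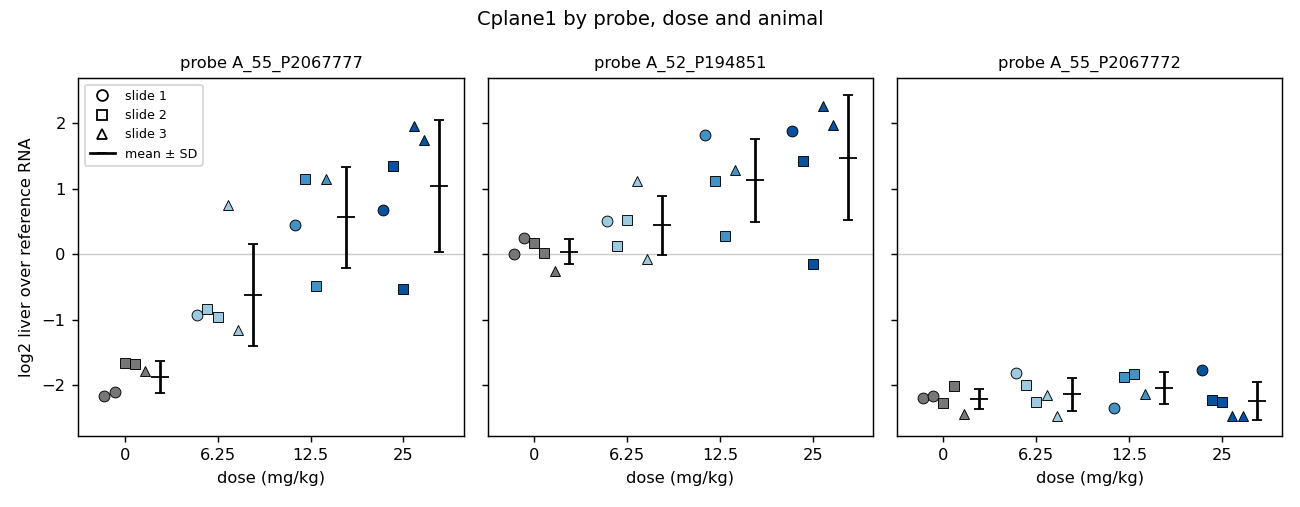
Log2 ratio of liver over reference RNA (y axis) by dose in mg/kg (x axis) for the 3 Cplane1 probes, 1 point per mouse, with the marker shape for the slide and the group mean with its SD in black. All exposed mice lie above the controls on A_55_P2067777, most do on A_52_P194851, and the groups overlap on A_55_P2067772.

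The disagreement between probes is described here on the same arrays. The gene had been picked for the difference of A_55_P2067777 at 25 mg/kg, and the lower doses share the same controls. The values below are therefore a description, with no test. At 25 mg/kg the difference from control was larger on A_55_P2067777 than on A_55_P2067772 by 2.94 ± 0.53 (SE, interval 1.80 to 4.07) and than on A_52_P194851 by 1.48 ± 0.30 (0.85 to 2.11). At 12.5 mg/kg the brightest probe exceeded the others by 2.27 ± 0.56 and 1.35 ± 0.31, and at 6.25 mg/kg by 1.17 ± 0.53 and 0.85 ± 0.30. The 3 probes carry the same transcript accession, had 1 spot each per array and were never saturated. Where each probe lies in the transcript is not given in the sources used here, and which of its transcript forms each one reads was not tested.

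The differences lay in the liver channel. On A_55_P2067777 the normalised log2 liver intensity averaged 10.65 ± 1.03 at 25 mg/kg and 7.81 ± 0.24 in controls, a difference of 2.84, whereas the reference channel averaged 9.61 ± 0.09 and 9.69 ± 0.04, a difference of -0.08 (SD, n = 5 each). On A_52_P194851 the liver channel differed by 1.495 and the reference channel by 0.06 at 25 mg/kg. On A_55_P2067772 they differed by 0.04 and 0.06. The log2 ratio of A_55_P2067777 was positive at 12.5 and 25 mg/kg on average, and negative in controls. Liver was red and the reference green on every array. A difference between the dyes therefore cannot be told apart from one between liver and reference RNA. In a piece of whole tissue, more RNA per cell and more cells of an expressing type cannot be told apart.

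**Figure D2:**
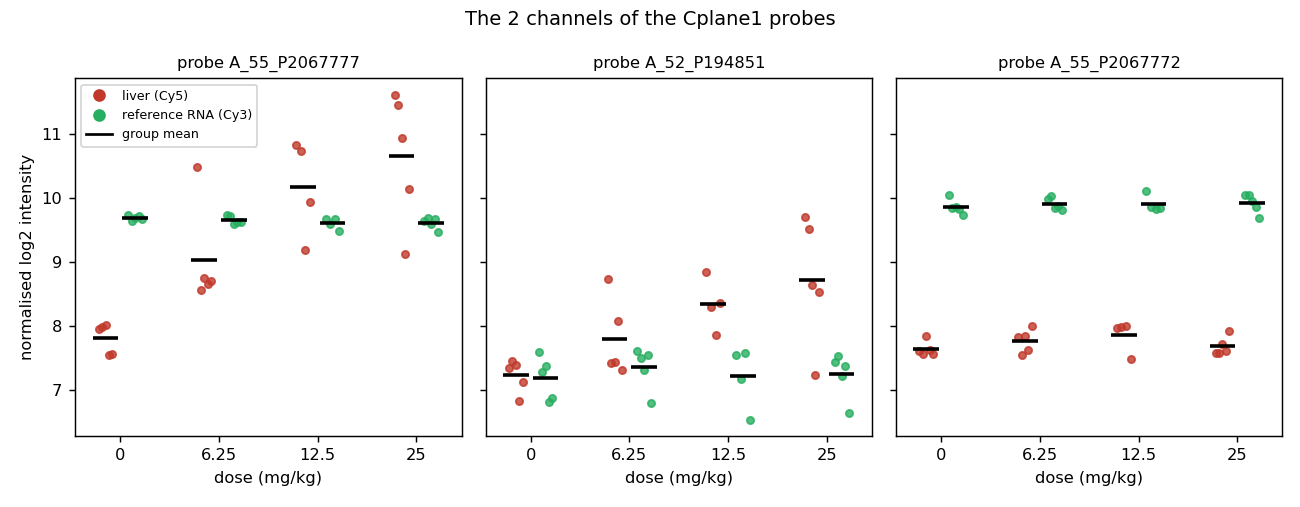
Normalised log2 intensity (y axis) of the liver channel (red) and the reference channel (green) by dose in mg/kg (x axis) for each Cplane1 probe, 1 point per array and a black line at each group mean. The reference mean at 25 mg/kg differs from control by -0.08 on A_55_P2067777 and by 0.06 on both other probes. Its largest difference, 0.17, is on A_52_P194851 at 6.25 mg/kg, where the liver channel differs by 0.57. The reference points of A_52_P194851 spread from 6.54 to 7.61. The liver points of A_55_P2067777 and A_52_P194851 lie higher at higher doses.

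The arrays sat on 3 slides that each held all 4 dose groups, and slide 1 was scanned 7 days after the others. Within slides 1, 2 and 3 the difference at 25 mg/kg was 2.82, 2.07 and 3.64 on A_55_P2067777, 1.76, 0.54 and 2.37 on A_52_P194851 and 0.42, -0.09 and -0.03 on A_55_P2067772. With slide as a block these differences were 2.75 ± 0.38, 1.45 ± 0.32 and 0.05 ± 0.12 (SE). The lowest mice of the upper doses on both responding probes, replicate 3 at 12.5 mg/kg and replicate 4 at 25 mg/kg, lay on slide 2. Their liver channel had 35.5% and 39.7% of spots well above background, near the low end of the 35.5% to 56.7% seen over all arrays, and the part of this in their low values was not tested. Replicates 2 and 4 at 12.5 mg/kg had 38.4% and 38.3% of spots well above background and were not low, at 1.15 and 0.44 on A_55_P2067777 and 1.12 and 1.82 on A_52_P194851. Without replicate 4 the difference at 25 mg/kg was 3.31 on A_55_P2067777 and 1.85 on A_52_P194851.

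**Figure D3:**
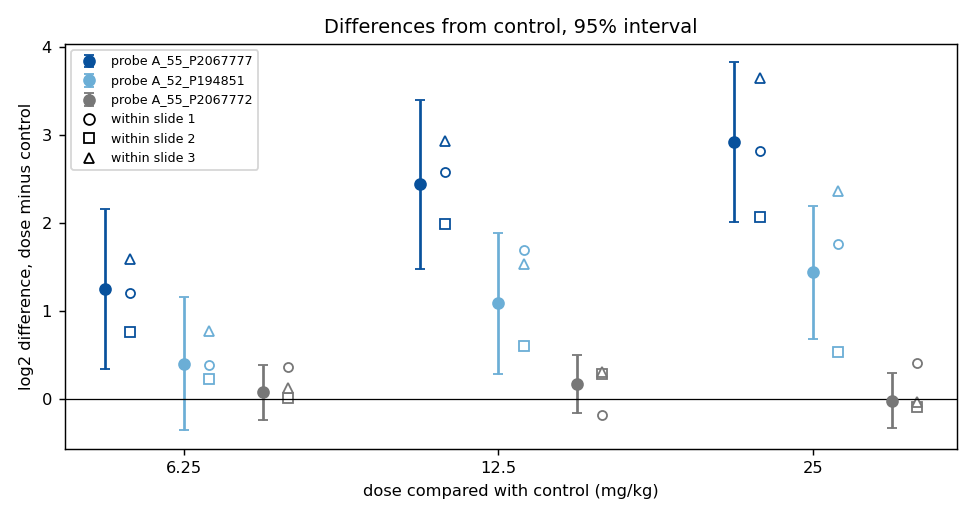
Log2 difference from control (y axis) at 6.25, 12.5 and 25 mg/kg (x axis) for the 3 Cplane1 probes, with filled points and 95% intervals for all arrays and open markers for the difference within each slide. A_55_P2067777 lies at 1.25, 2.44 and 2.92, A_52_P194851 at 0.40, 1.09 and 1.44, and A_55_P2067772 near 0 at each dose.

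The mouse-to-mouse pattern was shared by the 2 responding probes. After each slide's mean was subtracted, A_55_P2067777 and A_52_P194851 had a Pearson's r of 0.94 and a Spearman's rho of 0.91 over 19 arrays, and r was 0.92 without the 2 arrays farthest from the median. With group means removed as well, r was 0.90. Against A_55_P2067772, A_55_P2067777 had r = 0.21 and A_52_P194851 r = 0.08. These probes share arrays, hybridisation and RNA, so the coefficients are a description.

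Among 13811 other named genes, each taken by its brightest probe, the 5 most like A_55_P2067777 by the slide-centred r over 19 arrays were Aen (r = 0.92), Ccng1 (0.89), Dyrk3 (0.89), Phlda3 (0.87) and Atp8b5 (0.86). Over all these genes the median r was 0.01, and 15 genes exceeded 0.8. Aen encodes a nuclease that acts in apoptosis, Ccng1 encodes cyclin G1, and Phlda3 encodes a protein that restrains Akt at the membrane. Dyrk3 encodes a protein kinase and Atp8b5 a P4-type ATPase. The same 5 genes had r between 0.78 and 0.89 with A_52_P194851 and between -0.03 and 0.48 with A_55_P2067772. With group and slide means removed, r with A_55_P2067777 was 0.65 for Aen, 0.73 for Ccng1, 0.68 for Dyrk3, 0.76 for Phlda3 and 0.67 for Atp8b5. Their own differences at 25 mg/kg were smaller than that of A_55_P2067777, at 1.02 ± 0.18 for Aen, 1.16 ± 0.30 for Ccng1, 0.84 ± 0.24 for Dyrk3, 0.76 ± 0.22 for Phlda3 and 1.41 ± 0.44 for Atp8b5 (SE, no test, since they were chosen by likeness to a probe that differed). Another Atp8b5 probe stood at 0.10, so that gene's difference rests on 1 of its 2 kept probes.

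The clock genes set beside Cplane1 also had high coefficients over all arrays, and lower ones once group means were removed. Dbp, a clock output transcription factor, had a slide-centred r of 0.78 with A_55_P2067777 and stood at place 32 in the order of likeness, and Usp2, a deubiquitinating enzyme under clock control, had 0.72 at place 75. Nr1d2, a nuclear receptor of the clock, had 0.82 at place 8. Nfil3, a repressor acting on the DNA sites that Dbp uses, had -0.82 at place 13808 of 13811. With group and slide means removed, r was 0.14 for Dbp, -0.03 for Usp2, 0.46 for Nr1d2 and -0.35 for Nfil3. Replicate 1 of 6.25 mg/kg, picked because it was the highest of its dose on A_55_P2067777 (0.76), had the lowest Dbp (-0.82) and the lowest Usp2 (-0.86) of that dose.

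**Figure D4:**
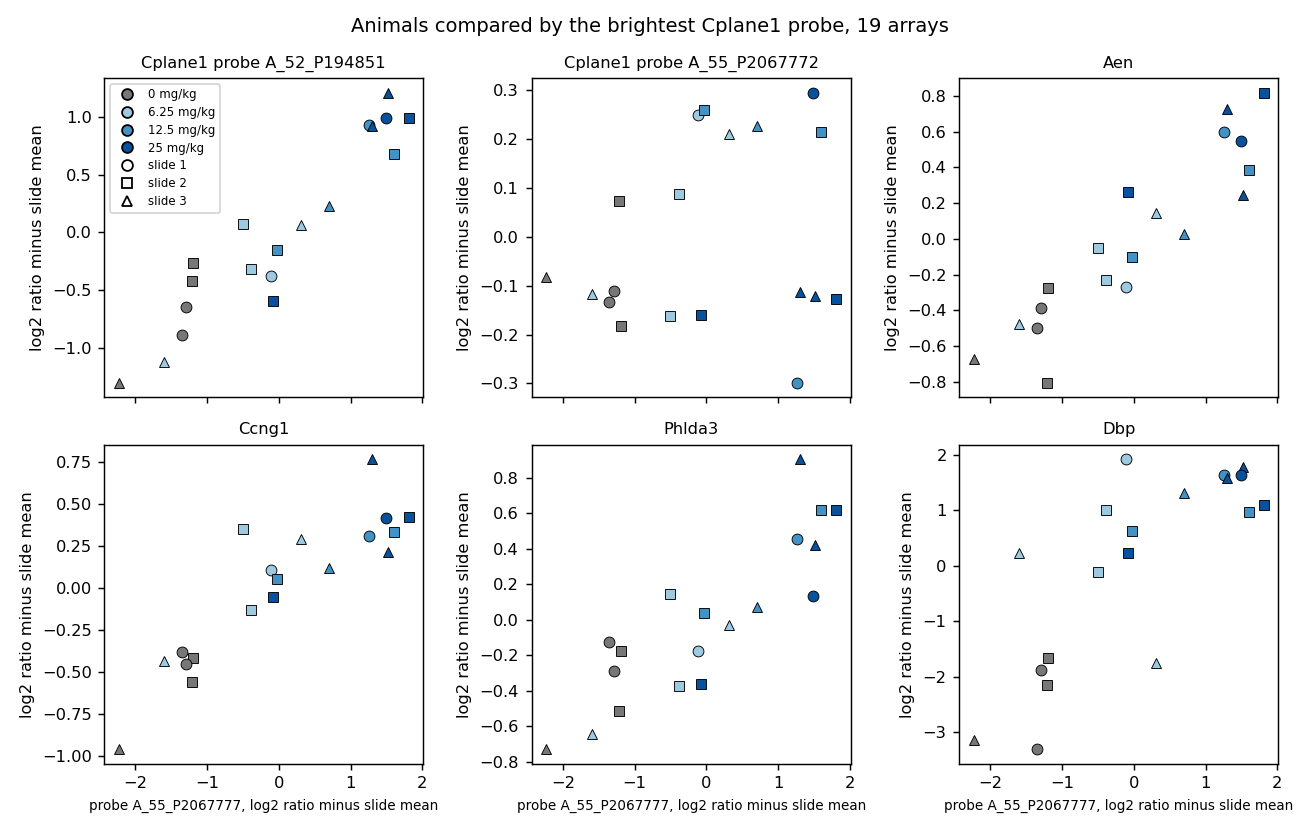
Log2 ratio minus slide mean for A_55_P2067777 (x axis) against the same value for both other Cplane1 probes, Aen, Ccng1, Phlda3 and Dbp (y axes), 1 point per array, coloured by dose and shaped by slide. A_52_P194851 and Aen follow the probe closely (r = 0.94 and 0.92), A_55_P2067772 does not (r = 0.21), and for Dbp 1 mouse at 6.25 mg/kg lies far below the rest of the exposed mice.

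The partners of Cplane1 gave small differences from control at 25 mg/kg. These partners in the complex were measured by 3 genes on the array. Intu stood at 0.16 ± 0.24 (log2 difference at 25 mg/kg, SE, limma adjusted p = 0.917), Fuz at 0.04 ± 0.14 (0.971) and Wdpcp at 0.04 ± 0.16 (0.971). The 95% intervals ran from -0.34 to 0.66 for Intu, -0.26 to 0.33 for Fuz and -0.29 to 0.37 for Wdpcp. All lay below that of A_55_P2067777, a probe picked because it differed at this dose. They overlapped that of A_55_P2067772 (-0.33 to 0.29). All 3 encode proteins that act with Cplane1 at the basal body, and their groups overlapped. Fuz averaged 0.28 ± 0.16 at 25 mg/kg and 0.24 ± 0.24 in controls, and Wdpcp -0.49 ± 0.18 and -0.53 ± 0.38 (SD, n = 5 each). Intu averaged -0.78 ± 0.51 at 25 mg/kg and -0.94 ± 0.29 in controls, with liver signal well above background in 4 of 5 mice of each group. Cplane2 was not matched on the array and was not analysed here.

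Of 126 listed genes of the cilium and its signalling that were on the array, 106 were measured. At 6.25, 12.5 and 25 mg/kg limma called 0 of them at an adjusted p under 0.05, with 5, 4 and 7 at an unadjusted p under 0.05. Those are 4.72%, 3.77% and 6.60% of the 106 genes, against 5.70%, 4.99% and 8.62% of all 13812 genes. Over all probes the share called at 25 mg/kg was 0.0578%, and 0% at each lower dose, and with slide as a block it was 0.0068% at 12.5 mg/kg. At 6.25 mg/kg 58 of the 106 genes (54.7%) were on the positive side with a median of 0.01, against 50.8% and 0.00 over all 13812 genes. At 12.5 mg/kg 77 (72.6%) were positive with a median of 0.07, against 46.1% and -0.02 over all genes, and at 25 mg/kg 59 (55.7%) with 0.03, against 48.3% and -0.01. The values at 25 mg/kg ran from -0.98 for Celsr1 to 0.51 for Bbs10. The interval of Cplane1's brightest probe, picked for its difference at this dose, lay above all of them. The probe A_55_P2067772 lay among them at -0.02.

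The transport machinery that Cplane1 helps to load gave small differences at 25 mg/kg. In the IFT-A complex, which carries cargo back from the tip, Ift122 stood at 0.20 ± 0.22 (adjusted p = 0.884), Ift140 at -0.15 ± 0.17 (0.889) and Ift43 at 0.12 ± 0.11 (0.871), with Tulp3, an adaptor for membrane cargo, at -0.20 ± 0.17 (0.857). In the IFT-B complex, which carries cargo outward, 13 of 16 genes were positive, with none called: Ift88 stood at 0.28 ± 0.12 (adjusted p = 0.636), Cluap1 at 0.22 ± 0.11 (0.681) and Ift52 at 0.15 ± 0.11 (0.826). Ttc30b, another IFT-B gene, stood at 0.25 ± 0.18 (0.835). These values lay below those of the responding Cplane1 probes, the brightest of which was picked for its difference. They lay on both sides of the -0.02 of A_55_P2067772.

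At the base of the cilium, 28 genes of the Joubert and transition zone list ran from -0.30 to 0.25 and none was called. They include Armc9 at -0.30 ± 0.17, B9d1 at -0.23 ± 0.18, Pde6d, which ferries lipid-modified proteins, at -0.15 ± 0.10, and Tmem107 at 0.15 ± 0.12. Of 15 basal body genes, Ccp110, a centriole cap protein that restrains cilium assembly, stood at 0.49 ± 0.17 (adjusted p = 0.407) and Cep135, a centriole scaffold protein, at 0.43 ± 0.15 (0.414). Odf2, a centriole appendage protein, stood at 0.19 ± 0.14, and Sass6, a centriole cartwheel protein, at 0.12 ± 0.09. Among 12 genes of the BBSome, the coat that moves membrane proteins in the cilium, and its chaperones and regulators, Bbs10 stood at 0.51 ± 0.15 (adjusted p = 0.268), Lztfl1 at 0.22 ± 0.18, Mkks at -0.14 ± 0.12 and Ttc8 at 0.12 ± 0.11. The transcription factors of ciliogenesis were 3 measured genes, with Rfx1 at 0.35 ± 0.13 (adjusted p = 0.446), Rfx4 at -0.27 ± 0.22 and Mcidas at 0.03 ± 0.12.

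Signalling genes tied to the cilium were likewise not called without the slide block. Of 12 Hedgehog genes, Smo, the membrane protein that transduces the signal, stood at -0.55 ± 0.17 (adjusted p = 0.309), and with slide as a block it fell by 0.63 (adjusted p = 0.0297), where 0.809% of all probes passed. Another Smo probe stood at 0.04, and at -0.07 with the block, so that call rests on 1 probe. Ihh, a Hedgehog ligand, stood at 0.49 ± 0.25 and Hhip, which binds the ligands, at 0.34 ± 0.21. Of 11 planar cell polarity genes, Celsr1, a cadherin of the pathway, stood at -0.98 ± 0.40 (adjusted p = 0.559), Ptk7 at -0.55 ± 0.31, Fzd6, a Frizzled receptor, at 0.47 ± 0.26 and Dvl1, its cytoplasmic transducer, at 0.19 ± 0.09.

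**Figure D5:**
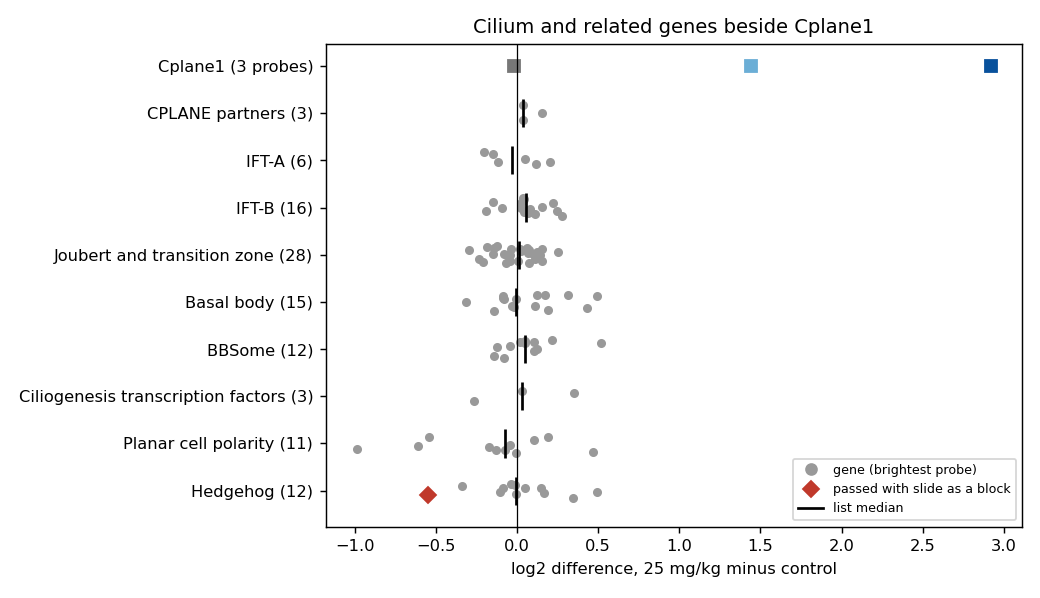
Log2 difference of 25 mg/kg over control (x axis) for the 3 Cplane1 probes (squares, top row) and for the measured genes of 9 lists of cilium and related genes (rows, with the number of genes), with black lines at list medians. The list genes run from -0.98 to 0.51, below the 1.44 and 2.92 of the responding Cplane1 probes. They lie on both sides of the -0.02 of A_55_P2067772, and the red diamond is Smo.

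Of the 3 nearest genes on each side of Cplane1 on chromosome 15 in the GRCm38.p6 annotation, Nup155, a nuclear pore gene, was the one measured. It stood at 0.26 ± 0.11 at 25 mg/kg (limma adjusted p = 0.636). The others, Gm7686, Rpl19-ps6, Gm46494, Gm24144 and Gm41265, were not matched on the array by symbol. Nipbl and Wdr70, protein-coding neighbours looked up after the values were seen, stood at 0.04 ± 0.09 and 0.03 ± 0.21. Neither of these passed the test (adjusted p = 0.949 and 0.985).

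The labelled tissue was checked by markers. All 9 hepatocyte markers were well above background on every array, with mean log2 ratios from 5.52 to 8.74 in controls. Of 7 cholangiocyte markers, the genes of the ciliated cells of the ducts, 5 were measured and 2 were above background on all arrays. The log2 of their summed levels, which follows the brightest of them most, was 11.2 to 11.5 at 25 mg/kg and 11.5 to 11.8 in controls. All 5 lay on the lower side at 25 mg/kg, with a median difference of -0.18 and 0 called. Of these 5, 3 lay on the higher side at 12.5 mg/kg, and all 5 on the lower side at 6.25 mg/kg (median -0.22). All 9 hepatocyte markers also lay on the lower side at 12.5 mg/kg (median -0.25) and at 25 mg/kg (median -0.21). At 6.25 mg/kg 1 of these 9 lay on the higher side, with a median of -0.28 for the 9. Hepatocyte, stellate, endothelial, macrophage and lymphocyte markers had 0 called at 25 mg/kg, and no marker list had a call there with the slide block. The part of cell composition in the Cplane1 values was not tested further.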

How the data were processed

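RNA of 19 livers was hybridised against a universal mouse RNA on 2-colour Agilent arrays, 200 ng of RNA per sample, per the labels. The deposited scanner files hold median intensity and background per spot and a log10 ratio of processed signals, and the file headers name Feature Extraction 10.7.3.1 as the software. The deposited table of the whole series holds a log2 ratio whose method is not given in the sources used here, and it had r of 0.993 to 0.996 per array with a loess ratio computed here without background subtraction. Median intensities were corrected by normexp with an offset of 50, loess-normalised within arrays with control spots at weight 0, and averaged per probe, leaving out flagged spots, with limma 3.58.1 in R 4.3.3. Channel levels were then scaled between arrays by the Aquantile method. A probe was kept if over 0.5 of its liver spots were well above background on at least 4 arrays: 29415 of 55681 probes, for 13812 named genes, each taken by its brightest kept probe. Symbols came from RefSeq accessions, matched for 79.9% of 33064 RefSeq probes. Group means were fitted over all 19 arrays, and limma's p-values were two-sided and Benjamini-Hochberg adjusted over all kept probes, with a threshold of 0.05. Samples are separate mice, per the series design. Liver spots well above background were 35.5% to 56.7% per array, and the number of arrays limits the precision. The limma step was tested on simulated data.

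Alternatives were slide as a block, no background subtraction, the scanner log ratio, the deposited table, no filter, only the compared groups, the mean of a gene's probes, each array left out, and, added after the data were seen, leaving out slide 1. Named were all Cplane1 probes, its complex partners, from each other list the members that passed at any dose and the 4 of smallest p at 25 mg/kg, the 3 nearest genes on each side, the 5 genes of highest slide-centred r and 4 clock genes. 1 gene that these rules name is not reported here. The gene, the lists and the rules were chosen with earlier results of these data known.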

Additional observations from a re-analysis of the deposited data

Results flagged for a closer look

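In groups of 4 or 5 mice, 72 groups of 18 genes or probes were checked for 1 animal far from the others, a check by which chance marks about 1 in 20 groups, and 3 were marked. On A_55_P2067777 the highest mouse at 6.25 mg/kg had 0.76, against -1.15 to -0.84 in the other 4. For Nr1d2 the lowest mouse at 6.25 mg/kg had 0.85, against 1.21 to 1.35 in the others. For Intu the lowest mouse at 12.5 mg/kg had -1.56, against -0.63 to -0.54 in the others.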

How the results depend on the processing

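The difference of A_55_P2067777 from control kept its sign in all 72 combinations of dose and setting. Those of A_52_P194851 did likewise, and those of A_55_P2067772, near 0, in 52 of 72. These counts include settings that left out an array of neither compared group. Such a setting repeats the main value by construction and could not change the sign. With each array left out in turn, A_55_P2067777 ranged from 0.91 to 1.38 at 6.25 mg/kg, 2.25 to 2.79 at 12.5 mg/kg and 2.69 to 3.31 at 25 mg/kg, A_52_P194851 from 0.23 to 0.53, 0.86 to 1.37 and 1.24 to 1.85, and A_55_P2067772 from -0.00 to 0.16, 0.10 to 0.27 and -0.14 to 0.04. Under the 5 other settings, which include leaving out slide 1, A_55_P2067777 at 25 mg/kg ranged from 2.75 to 3.43 and A_55_P2067772 from -0.11 to 0.09. With the scanner log ratio A_52_P194851 had 2.08 at 25 mg/kg and 1.79 at 12.5 mg/kg, and the cause was not tested. With slide as a block 1 cilium gene, Smo, passed at 25 mg/kg, against 0 without it, and leaving out single arrays gave 0 to 0 such genes at each dose. Calls over all probes at 25 mg/kg ran from 0 (without 25 mg/kg replicate 1) to 67 (without 6.25 mg/kg replicate 5) with single arrays left out, against 17 with all arrays and 238 with the block, and at 12.5 mg/kg from 0 to 5, against 0 with all arrays and 2 with the block. No paired analysis was possible because the labels give no replicate numbers shared between groups. Liver signal near background limits the precision of A_52_P194851 and A_55_P2067772. The same holds for the controls of A_55_P2067777, whose liver signal averaged 162 over a background of 66.5.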

Other observations

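At the other end of the order of likeness, picked after the values were seen, the lowest slide-centred r with A_55_P2067777 over 19 arrays belonged to Lysmd3 (-0.85), Btg3 (-0.84) and Desi2 (-0.84). Btg3, a gene of an antiproliferative family, averaged -2.15 ± 0.35 at 25 mg/kg and -1.47 ± 0.18 in controls (SD, n = 5 each). With group and slide means removed, r was -0.75 for Lysmd3, -0.67 for Btg3 and -0.55 for Desi2. Lysmd3 averaged 0.69 ± 0.17 at 25 mg/kg and 1.27 ± 0.41 in controls.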
